A study of Mus musculus with 6 samples.

Results

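The 9 genes Wt1, Bnc1, Lrrn4, Aldh1a2, Upk3b, Upk1b, Msln, Krt19 and Krt8, a set typical of the epicardium and of mesothelium in general, were followed in the left atrium of mice with a leaking mitral valve. They were chosen by gene symbol, with earlier results of these data known. They are 9 of the 55471 genes in the deposited table, and all 9 passed the filter on low counts. The MR group (mitral regurgitation) held male C57BL/6J mice, operated on as adults at 10 weeks, whose anterior mitral leaflet had been pierced under echocardiographic guidance. The Sham group held mice of the same strain, sex and age in which the cardiac apex was punctured and the leaflet was spared. Left atria were taken 2 weeks after surgery, and 3 mice per group gave 1 poly(A) RNA library each. The labels give the genotype as C57BL/6 and name no transgene, Cre driver or drug.

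The epicardium is the single-layered mesothelium that covers the heart, and the same kind of sheet lines the pericardial, pleural and peritoneal cavities. Mesothelial cells keep epithelial features, such as simple keratins and apical surface glycoproteins, beside transcription factors and a retinoic acid synthesizing enzyme carried over from the embryonic coelomic lining. In the embryo the epicardium gives rise to fibroblasts and mural cells through an epithelial to mesenchymal transition. In the adult heart it is mostly quiescent and is known to raise Wt1 and Aldh1a2 after injury.

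Gene counts summed to between 14124407 and 20039490 per library, and at these depths a floor of 3 counts came to between 0.15 and 0.219 CPM (counts per 1000000 of the library total, which was first scaled by TMM, the trimmed mean of M-values). The 3 mice of a group are separate animals per the series' design text. Of 15218 genes tested with edgeR's quasi-likelihood test, 1793 were higher and 1615 lower in MR (Benjamini-Hochberg adjusted p below 0.05). Scaling by library totals alone shifted the median log2 fold change of all tested genes from 0.00 to 0.21, with 4025 higher and 574 lower. The atrial cardiomyocyte genes Nppa and Myl7 were abundant in both groups, at 30526 and 8178 CPM in Sham and 27699 and 5553 CPM in MR.

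All 9 genes were higher in MR, by 2.26-fold to 3.32-fold, whereas 11.8% of all tested genes were higher, 10.6% were lower and 22.4% differed in either direction (adjusted p of the 9 between 0.00204 and 0.0126 by edgeR's quasi-likelihood test). For each of the 9, every MR library lay above every Sham library, as was so for 20.6% of all tested genes. The median log2 fold change of the 9 was 1.45, and that of all tested genes was 0.00. A log2 fold change of at least 1 in a gene called higher was found for all 9 and for 3.99% of all tested genes. Because the 9 were chosen with earlier results of these data known, setting them beside these shares is no independent test. In RNA from whole tissue, more cells of a type and more RNA per cell cannot be told apart.

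**Figure D1:**
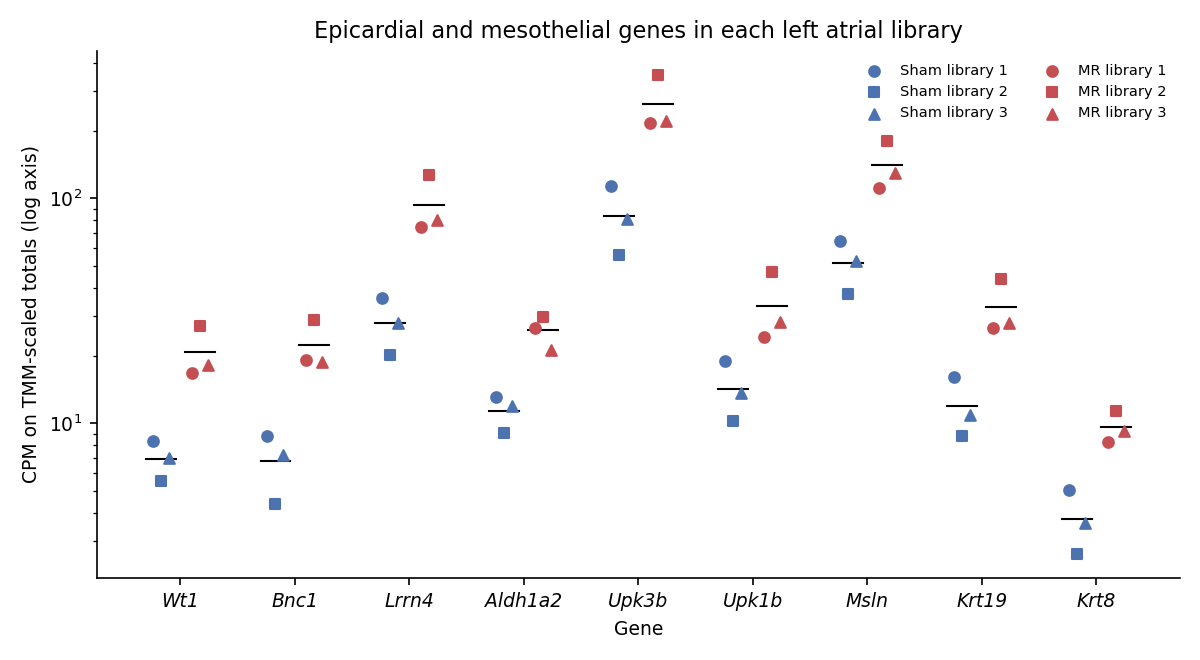
Level of each of the 9 genes in each library, in CPM on TMM-scaled library totals (log axis), with Sham in blue, MR in red, symbols for the library number and a bar at the mean of 3 libraries. In every gene the 3 MR libraries sit above the 3 Sham libraries, and Sham library 1 and MR library 2 are the highest of their groups.

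Wt1 (ENSMUSG00000016458) encodes a zinc finger transcription factor needed for the embryonic epicardium. It was at 8.31, 5.55 and 7.01 CPM in Sham libraries 1 to 3 and at 16.7, 27.1 and 18.1 CPM in MR libraries 1 to 3. The lowest MR value was above the highest Sham value. The log2 fold change was 1.56 ± 0.21 (SE; edgeR adjusted p = 0.00204), with a 95% interval from 1.09 to 2.03. Wt1os (ENSMUSG00000074987), annotated on the strand opposite Wt1 and singled out after its values were seen, had 9, 8 and 7 counts in Sham and 25, 42 and 37 counts in MR (log2 fold change 1.96 ± 0.33, edgeR adjusted p = 0.00453). No source used here states the strand setting of the counting, so reads of Wt1 and Wt1os cannot be told apart with certainty.

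Bnc1 (ENSMUSG00000025105) encodes basonuclin, a zinc finger protein of mesothelium, stratified epithelium and germ cells. It was at 8.79, 4.38 and 7.23 CPM in Sham and at 19.1, 28.9 and 18.8 CPM in MR. The Sham libraries differed by 2.01-fold between the highest and the lowest, and all of them were below MR. The log2 fold change was 1.69 ± 0.25 (SE; edgeR adjusted p = 0.00266).

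Aldh1a2 (ENSMUSG00000013584) encodes retinaldehyde dehydrogenase 2, which makes retinoic acid. It was at 13.1, 9.05 and 11.9 CPM in Sham and at 26.6, 29.8 and 21.2 CPM in MR. MR library 2 was only 1.12-fold above MR library 1, a smaller step than in the other 8 genes. Its rise was the smallest of the 9, at 1.18 ± 0.17 on the log2 scale (SE; edgeR adjusted p = 0.00236).

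Upk3b (ENSMUSG00000042985), a uroplakin gene and the most abundant of the 9, was at 113, 56.1 and 81.0 CPM in Sham and at 216, 354 and 219 CPM in MR. Uroplakins are membrane proteins best known from the bladder surface, and Upk3b is also a mesothelial marker. The log2 fold change was 1.66 ± 0.26 (SE; edgeR adjusted p = 0.0033). Upk1b (ENSMUSG00000049436), which encodes a tetraspanin of the uroplakin complex, was at 18.9, 10.2 and 13.7 CPM in Sham and at 24.1, 47.3 and 28.2 CPM in MR. The gap between its highest Sham and lowest MR library was small beside the spread within MR. Its log2 fold change was 1.20 ± 0.27 (SE; edgeR adjusted p = 0.0126), and without Sham library 2 the adjusted p was 0.04995 with a log2 fold change of 1.01.

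Msln (ENSMUSG00000063011) encodes mesothelin, a surface glycoprotein of mesothelial cells, and was at 64.5, 37.7 and 52.6 CPM in Sham and at 112, 180 and 130 CPM in MR. Its lowest MR library was well above its highest Sham library. The log2 fold change was 1.44 ± 0.21 (SE; edgeR adjusted p = 0.00277). Lrrn4 (ENSMUSG00000043110), a leucine-rich repeat membrane protein gene used as a mesothelial marker, was at 36.1, 20.1 and 27.9 CPM in Sham and at 74.5, 126 and 79.7 CPM in MR. It rose most among the 9, by 1.73 ± 0.24 on the log2 scale (SE; edgeR adjusted p = 0.00207).

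Krt19 (ENSMUSG00000020911) and Krt8 (ENSMUSG00000049382) encode keratins of simple epithelia, of type I and type II. Krt19 was at 16.0, 8.76 and 10.9 CPM in Sham and at 26.5, 44.0 and 27.9 CPM in MR (log2 fold change 1.45 ± 0.24, edgeR adjusted p = 0.00453). Krt8 was the scarcest of the 9 in CPM, at 5.06, 2.63 and 3.62 CPM in Sham and at 8.24, 11.3 and 9.23 CPM in MR (log2 fold change 1.33 ± 0.23, edgeR adjusted p = 0.00526). Both keratins were clear of overlap between the groups, and MR library 2 was the highest for both.

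**Figure D2:**
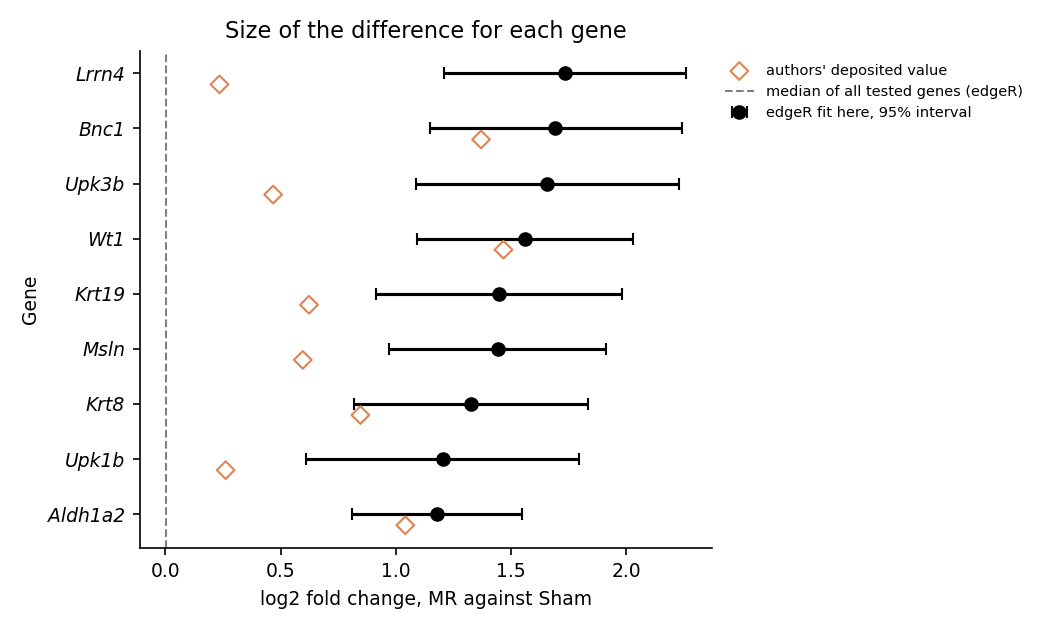
Log2 fold change of MR against Sham for each of the 9 genes, with the edgeR estimate and its 95% interval in black, the authors' deposited value as an open diamond and the median of all tested genes as a dashed line. The edgeR estimates run from 1.18 for Aldh1a2 to 1.73 for Lrrn4, and every deposited value lies to the left of its estimate.

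The 95% intervals of the 9 fold changes overlapped one another, from a lowest bound of 0.61 for Upk1b to a highest bound of 2.26 for Lrrn4. In the authors' deposited table all 9 fold changes were also positive but smaller than those fitted here, and 4 of 9 had an adjusted p below 0.05. The authors' deposited table gives Wt1 a log2 fold change of 1.47 (adjusted p = 1.98e-12) and Aldh1a2 1.04 (adjusted p = 7.21e-07). For Lrrn4 the authors' deposited table gives 0.23 (adjusted p = 0.0914), for Upk1b 0.26 (adjusted p = 0.135) and for Upk3b 0.47 (adjusted p = 0.0528). DESeq2 run here on the same counts gave log2 fold changes of 1.72 for Lrrn4, 1.20 for Upk1b and 1.65 for Upk3b (DESeq2 adjusted p = 2.05e-13, 4.2e-05 and 0.000215). The submitters' processing notes name DESeq2, but no source used here states its version or any shrinkage behind the deposited columns. The cause of the gap was not tested.

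The 9 genes shared their order of libraries. Within Sham, library 1 was the highest and library 2 the lowest for 9 of 9, with Sham library 1 between 1.45-fold and 2.01-fold above Sham library 2. Within MR, library 2 was the highest for 9 of 9, and library 1 was the lowest for 7. Bnc1 and Aldh1a2, for which MR library 3 was the lowest, were the exceptions. How many of all tested genes had the same order was not counted, so the order is not shown to be particular to the 9. Together the 9 genes took 0.0266%, 0.0141% and 0.0203% of the counts in Sham libraries 1 to 3 and 0.056%, 0.0939% and 0.0576% in MR libraries 1 to 3.

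Levels can be compared between genes only per length, so the deposited TPM, which scales counts by gene length and library, was used for this. Upk3b led, at 48.3 ± 16.7 TPM in Sham and 193 ± 63.2 TPM in MR (SD, n = 3), followed by Msln at 34.5 ± 9.37 and 118 ± 32.6 TPM. Lrrn4 was at 15.4 ± 4.54 and 65.1 ± 21.7 TPM. Next in Sham were Upk1b (14.0 ± 4.35 TPM), Krt19 (13.1 ± 4.11 TPM) and Aldh1a2 (10.3 ± 2.09 TPM), and the order of Lrrn4, Upk1b, Krt19 and Aldh1a2 was the same within each of the 3 Sham libraries, although their ranges over libraries overlapped. In MR, Krt19 (45.7 ± 14.8 TPM) was above Upk1b (41.1 ± 16.4 TPM) and Aldh1a2 (29.5 ± 6.02 TPM) within each library, while Upk1b and Aldh1a2 changed places in MR library 1 (30.1 and 30.8 TPM). The lowest were Krt8 at 3.93 ± 1.3 TPM, Bnc1 at 2.98 ± 1.02 TPM and Wt1 at 2.30 ± 0.487 TPM in Sham, and 12.6 ± 2.35, 12.3 ± 3.53 and 8.62 ± 2.59 TPM in MR. Krt8 and Bnc1 changed places in MR library 2 (15.3 and 16.3 TPM). TPM is not TMM-scaled, and the median tested gene was higher in MR by 0.34 on the log2 TPM scale, so no fold change was taken from it.

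The summed TPM of the 9 genes was 186, 99.2 and 149 in Sham libraries 1 to 3 and 435, 712 and 431 in MR libraries 1 to 3. The share of each gene in that sum moved less, with mean log2 changes between -0.34 (Aldh1a2) and 0.21 (Bnc1). Upk3b held 33.0 ± 1.62% of the sum in Sham and 36.5 ± 0.994% in MR, and Msln 24.0 ± 0.944% and 22.6 ± 1.32% (SD, n = 3). Wt1 held 1.62 ± 0.159% in Sham and 1.64 ± 0.022% in MR. The shares of Upk3b, Lrrn4 (10.7 ± 0.108% and 12.3 ± 0.305%) and Bnc1 (2.04 ± 0.178% and 2.35 ± 0.0929%) were higher in all MR libraries than in all Sham libraries. The share of Upk1b was lower in all MR libraries, at 9.64 ± 0.245% in Sham and 7.67 ± 0.744% in MR. Aldh1a2 went from 7.26 ± 0.857% to 5.76 ± 1.15%, with overlap between the groups. With 3 libraries against 3, a two-sided exact permutation test cannot go below p = 0.1, so it could not decide on these shares. No other test of the shares was made.

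**Figure D3:**
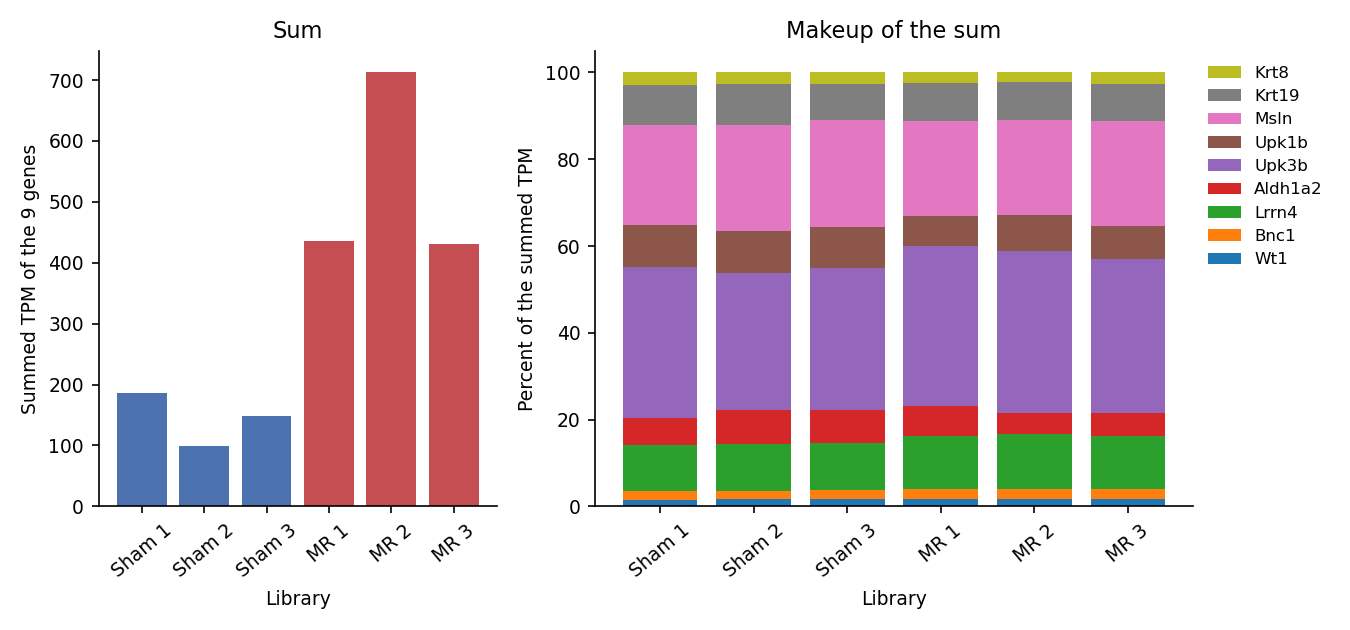
Summed TPM of the 9 genes in each library (left, Sham blue and MR red) and the percent of that sum held by each gene (right). The sum runs from 99.2 in Sham library 2 to 712 in MR library 2, while Upk3b holds between 31.5% and 37.3% of it in every library.

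Promoter windows were available for 5 of the 9 genes, and 3 are shown because they belong to the most abundant gene (Upk3b), the gene with the largest rise (Lrrn4) and the gene with the smallest (Aldh1a2). Each runs from 250 bases before to 50 bases after the annotated start, 5′ to 3′ on the gene's own strand, and comes from RefSeq on build GRCm38.p6, which is older than the build of the counts. Capitals mark matches, on either strand, to CATTCC (the TEAD motif), GGGCGG (GC box), GCGTGGG (a core shared by EGR and WT1 motifs), TATAAA or CCAAT. No 2 of the marked matches overlap.
Upk3b, chr5:136038246-136038545, plus strand: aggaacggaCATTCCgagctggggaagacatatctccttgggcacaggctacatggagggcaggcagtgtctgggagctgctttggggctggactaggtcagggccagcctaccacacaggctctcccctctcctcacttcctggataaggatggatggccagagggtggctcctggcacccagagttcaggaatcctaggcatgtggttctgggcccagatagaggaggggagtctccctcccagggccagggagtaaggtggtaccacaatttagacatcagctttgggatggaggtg
Lrrn4, chr2:132880813-132881112, minus strand: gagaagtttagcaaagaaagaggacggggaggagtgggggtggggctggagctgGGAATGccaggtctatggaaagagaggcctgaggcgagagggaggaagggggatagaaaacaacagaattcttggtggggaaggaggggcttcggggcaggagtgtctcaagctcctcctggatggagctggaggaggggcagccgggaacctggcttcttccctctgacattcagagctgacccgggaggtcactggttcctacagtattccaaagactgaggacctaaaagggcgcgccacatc
Aldh1a2, chr9:71215539-71215838, plus strand: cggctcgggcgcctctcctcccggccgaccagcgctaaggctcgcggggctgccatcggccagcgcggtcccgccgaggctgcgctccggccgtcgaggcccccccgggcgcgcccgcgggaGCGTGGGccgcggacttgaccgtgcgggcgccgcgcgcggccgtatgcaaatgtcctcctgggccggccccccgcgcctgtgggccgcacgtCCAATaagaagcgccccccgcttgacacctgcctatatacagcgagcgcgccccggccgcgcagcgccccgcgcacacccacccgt

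Upk3b and Lrrn4 each held 1 TEAD match, found in 14.7% of the 32851 windows of the RefSeq table, and their GC content was 58.7% and 58.0%. Aldh1a2, with a GC content of 78.0% against a median of 52.7% over all windows, held 1 match to GCGTGGG (5.04% of windows) and 1 to CCAAT (37.4%). Among the other two, Bnc1 on chromosome 7 held 6 matches to the GC box (found at least once in 35.7% of windows), and Krt8 on chromosome 15 held TATAAA (13.6%) beside the annotated start, on both strands in overlap. These matches describe letters in the windows and name no site of binding.

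Other genes of epicardium and mesothelium were higher as well. Of 15 listed, 13 could be tested, and 12 were higher and 0 lower in MR, against 11.8% and 10.6% of all tested genes. Their median log2 change was 1.01. This list, too, was chosen with earlier results of these data known, so its counts are no independent test. Among the 12 were Ezr (1.01 ± 0.13), which encodes the membrane-cytoskeleton linker ezrin, Rspo1 (1.34 ± 0.18), a secreted enhancer of Wnt signalling, Muc16 (1.33 ± 0.19), the mucin CA125 that binds mesothelin, and the tight junction gene Cldn15 (1.27 ± 0.19) (edgeR adjusted p between 0.00199 and 0.00314). Rspo1 was at 10.2, 8.68 and 9.98 CPM in Sham and at 21.3, 31.8 and 20.2 CPM in MR. Muc16 was at 21.7, 13.4 and 18.0 CPM in Sham and at 33.6, 47.1 and 53.1 CPM in MR, so that here MR library 3 and not MR library 2 was the highest.

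The epicardial transcription factor genes Tbx18 and Tcf21 and the protease inhibitor gene Slpi were singled out from that list after their values were seen. Tbx18 went from 12.9 ± 1.69 to 22.6 ± 3.4 CPM (SD, n = 3; log2 fold change 0.81 ± 0.14, edgeR adjusted p = 0.00555). Tcf21, which in the adult also marks fibroblasts, had a log2 fold change of 0.67 ± 0.16 (edgeR adjusted p = 0.018). The call of Tcf21 ended without Sham library 1, 2 or 3 (0.0529, 0.0662 and 0.0612). Slpi had 4, 1 and 4 counts in Sham and 12, 73 and 17 in MR, and its call ended without any 1 of the Sham libraries (edgeR adjusted p = 0.0865, 0.0743 and 0.057). Gpm6a did not pass, with 90.9 ± 24.6 CPM in the Sham libraries and 128 ± 28.8 CPM in the MR libraries (edgeR adjusted p = 0.106). Scx was too low to test and Calb2 had 0 counts in all 6 libraries, which allows at most 0.219 CPM per library, a limit that covers counting error only. Of this list 7 genes were called without Sham library 2 and 7 without Sham library 3, and 5 were called when MR libraries 1 and 2 were both left out.

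Among the other simple keratins and uroplakins 1 of 3 tested genes was higher, against 11.8% of all tested genes, a list too short to be read against that share. Krt7, a type II keratin, was at 9.64, 3.36 and 4.05 CPM in Sham and at 15.0, 17.6 and 13.6 CPM in MR (log2 fold change 1.40 ± 0.32, edgeR adjusted p = 0.0138). Without Sham library 3 it missed the threshold (0.0537). Krt18, the usual filament partner of keratin 8, was at 10.7, 6.20 and 6.87 CPM in Sham and at 9.87, 12.8 and 12.3 CPM in MR, with overlap between the groups (log2 fold change 0.54 ± 0.21, edgeR adjusted p = 0.0829). Whether the fold changes of Krt8 and Krt18 differ was not tested. Upk1a had between 11 and 18 counts in each library and did not pass (edgeR adjusted p = 0.661). Krt20, Krt23, Upk3a and Upk3bl had at most 4 counts in any library and Upk2 had 0 counts in all 6. Under scaling by library totals, and again without Sham library 1, 2 of this list were called. Of all tested genes, 4599 of 15218 and 1583 of 15610 were called in these settings.

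Of 14 tested genes of the retinoic acid pathway besides Aldh1a2, 2 were higher and 1 lower in MR, near the 11.8% and 10.6% of all tested genes, so the counts show nothing particular to the list. The median log2 change was 0.33. The 2 higher genes encode the other retinaldehyde dehydrogenases. Aldh1a1 was at 29.4, 25.3 and 21.5 CPM in Sham and at 43.7, 83.4 and 42.7 CPM in MR (log2 fold change 1.15 ± 0.24, edgeR adjusted p = 0.0103), and Aldh1a3 at 4.32, 2.99 and 3.76 CPM in Sham and at 6.67, 8.39 and 9.18 CPM in MR (1.12 ± 0.19, edgeR adjusted p = 0.00495). In both, the groups did not overlap. Rxrg, a retinoid X receptor gene, was lower (-0.69 ± 0.16, edgeR adjusted p = 0.0152) but missed the threshold without Sham library 1 (0.069). The retinoic acid receptor genes Rara, Rarb and Rarg did not pass, with log2 fold changes of 0.22, -0.15 and 0.37. Under scaling by library totals 7 of the list were higher and 1 lower, beside 4025 higher and 574 lower of 15218 tested genes. With the replicate number as a block 4 were higher and 1 lower, beside 1702 and 1383 of 15218 genes. Without MR library 1 also 4 were higher and 1 lower, beside 1736 and 1717 of 15542 genes.

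Of 8 tested genes of epithelial to mesenchymal transition, 3 were higher and 2 lower in MR, against 11.8% and 10.6% of all tested genes. This list is too short to be read against those shares. Its median log2 change was 0.40. The transcription factor genes Snai1 (1.16 ± 0.31) and Twist1 (1.07 ± 0.29) and the intermediate filament gene Vim (0.58 ± 0.14) were higher (edgeR adjusted p = 0.0244, 0.0259 and 0.0156), but all 3 calls ended without Sham library 2 (0.0704, 0.0896 and 0.0607) and without Sham library 3 (0.0528, 0.0662 and 0.0635). Those of Snai1 and Twist1 also ended without Sham library 1 (0.104 and 0.0677) or MR library 2 (0.0853 and 0.0832). Cdh2, the N-cadherin of cardiomyocytes and mesenchyme, fell from 119 ± 10.8 to 77.8 ± 7.46 CPM, and the mesenchymal homeobox gene Prrx1 from 67.5 ± 1.63 to 46.6 ± 1.1 CPM (SD, n = 3; edgeR adjusted p = 0.00568 and 0.003). Cdh1, the E-cadherin of most epithelia, had at most 9 counts in any library and was not tested.

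**Figure D4:**
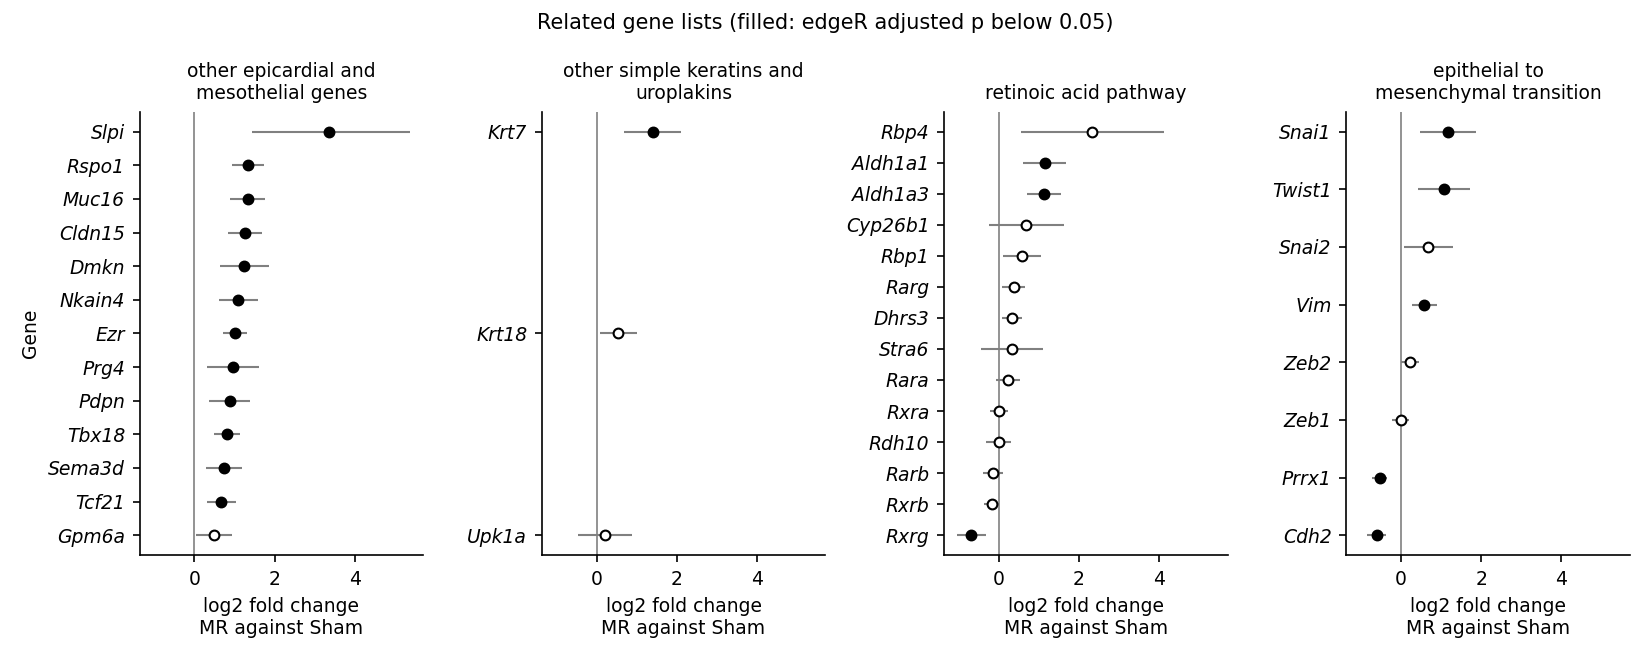
Log2 fold change of MR against Sham with its 95% interval for the tested genes of 4 related lists; filled points have an edgeR adjusted p below 0.05. In the epicardial and mesothelial list 12 of 13 points are filled and right of 0, whereas the retinoic acid list has 2 filled points to the right and 1 to the left.

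Markers of other cell types were read in the same libraries. Of 11 markers of airway and glandular epithelium, Sftpc and Sftpb had 0 counts in all 6 libraries, Epcam had at most 4 counts in any, and the summed level of the list was 1.52 to 2.41 CPM in Sham and 3.14 to 10.4 CPM in MR. Only Krt14, at 1.42 ± 0.73 and 3.84 ± 2.5 CPM, passed the filter, and it did not pass the test (edgeR adjusted p = 0.0673). Cldn3 had between 2 and 15 counts in 5 libraries and 50 in MR library 2. The summed level of the 9 epicardial and mesothelial genes was 154 to 284 CPM in Sham and 524 to 849 CPM in MR.

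Fat cell markers moved with MR libraries 1 and 2. The summed level of the 8 markers was 4.63, 0.511 and 17.7 CPM in Sham and 635, 1026 and 6.19 CPM in MR libraries 1 to 3. Of the 8, Retn and Lep did not pass the filter on low counts. All 6 tested members, Cfd, Pck1, Car3, Cidec, Adipoq and Plin1, were called higher, against 11.8% of all tested genes, a list too short to be read against that share. None of the list was called without Sham library 1, without Sham library 2 or with limma-voom, and 4 were without Sham library 3. MR library 3, in which fat cell markers were as low as in Sham, had 1.34 more than the Sham mean on the log2 scale for the summed level of the 9 epicardial and mesothelial genes. When MR libraries 1 and 2 were both left out, the log2 fold changes were 1.49 for Lrrn4, 1.44 for Bnc1 and 1.39 for Upk3b. They were 1.36 for Wt1, 1.32 for Msln, 1.26 for Krt8 and 1.21 for Krt19. For Upk1b and Aldh1a2 they were 0.96 and 0.89. That fit assumes that the lone MR library varies like the Sham libraries. The part of fat cells in the levels of the 9 genes was not tested.

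**Figure D5:**
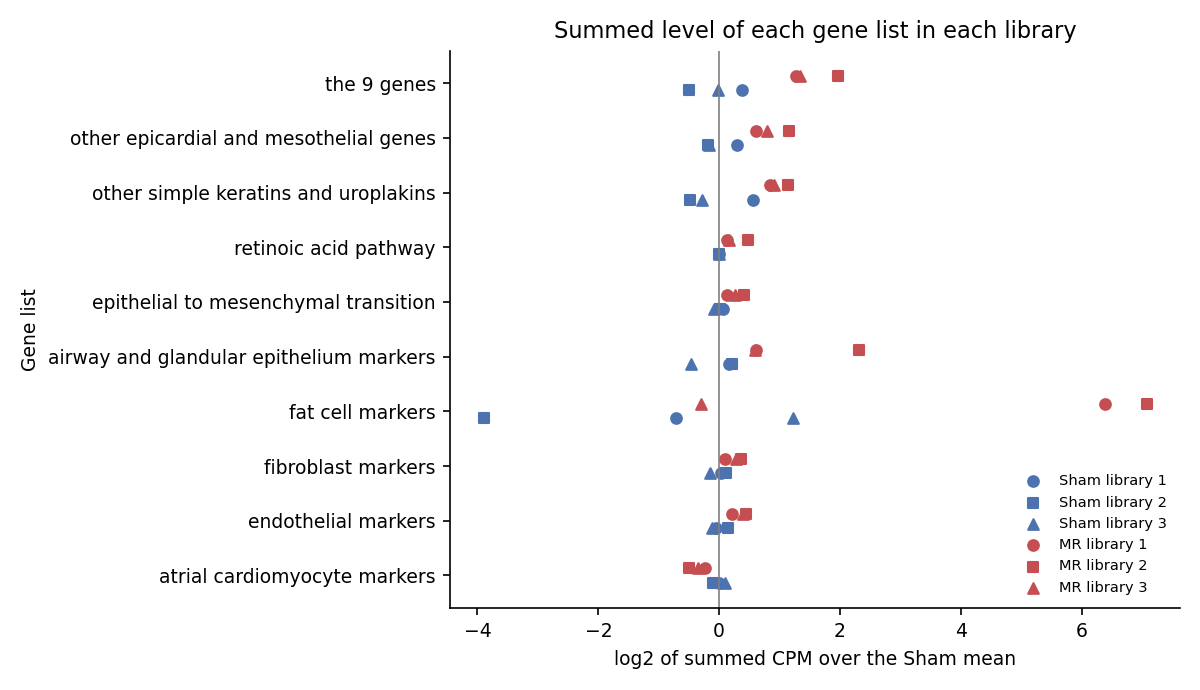
Summed CPM of each gene list in each library relative to the Sham mean (log2), with Sham in blue, MR in red and symbols for the library number. The 9 genes are at 1.26 to 1.96 in the MR libraries, while fat cell markers are at 6.38 and 7.07 in MR libraries 1 and 2 and at -0.30 in MR library 3.

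Fibroblast, endothelial and cardiomyocyte markers had medians nearer to 0, and their counts stand beside 11.8% of all tested genes higher and 10.6% lower. Each of these lists is too short to be read against those shares. Of 8 fibroblast markers 2 were higher (Dpt and Col1a2) and 1 lower (Pi16). The median log2 change of the 8 was 0.35, and summed levels ran from 2105 to 2521 CPM in Sham and from 2502 to 3003 CPM in MR. Of 6 endothelial markers 3 were higher (Kdr, Tie1 and Pecam1), with a median of 0.38 and summed levels of 709.7 to 857.9 CPM in Sham and 890.1 to 1052 CPM in MR. Of 6 atrial cardiomyocyte markers 4 were lower (Sln, Myl4, Tnnt2 and Myl7) and 0 higher, with a median of -0.52 and summed levels of 77395 to 89462 CPM in Sham and 59155 to 71319 CPM in MR. These 3 lists had 1, 0 and 0 genes called without Sham library 1, 1, 2 and 3 without Sham library 2, and 1, 1 and 0 without Sham library 3. They had 2, 1 and 2 without MR library 2 and 2, 1 and 0 without MR library 3. Scaled by library totals they had 5, 5 and 1 genes called, beside 4025 higher and 574 lower of all 15218 tested genes. The part of these cell types in the levels of the 9 genes was not tested.

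The tested genes outside all lists whose profile over the 6 libraries was closest to the mean profile of the 9 were Serping1, Stk26, Cys1, Rcn3, Anxa2 and Gpc3. Likeness was the root mean square difference between z-scored log2 CPM profiles, which was 0.0547 for Serping1 and 0.0885 for Gpc3. For the 9 genes themselves it ran from 0.0264 for Upk3b to 0.185 for Aldh1a2. The profiles of the 9 make up that mean, so their values cannot be set against those of the outside genes. Gpc3, which encodes the cell surface proteoglycan glypican 3, was at 36.5, 18.9 and 27.8 CPM in Sham and at 58.9, 94.2 and 57.5 CPM in MR, with Sham library 1 and MR library 2 again the highest of their groups. Serping1, the complement C1 inhibitor gene, was more abundant, with 237 ± 23.5 CPM in the Sham libraries and 342 ± 30.6 CPM in the MR libraries (SD, n = 3). With 6 libraries and 15218 genes, such likeness describes these libraries alone.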

How the data were processed

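Left atrial poly(A) RNA of 3 Sham and 3 MR mice was measured by a stranded mRNA kit and paired-end NovaSeq reads, per the labels' protocols. The submitters' processing notes name fastp, HISAT2 2.1.0, featureCounts of Subread 2.0.1, DESeq2 and build GRCm39, and no source used here gives the strand setting or annotation release. The deposited table holds counts per gene (not normalized), TPM, and the authors' log2 fold change with its p-value and adjusted p-value, per the file headers. All sample columns were matched to libraries by title.

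Counts were tested with edgeR 4.0.16 (quasi-likelihood, TMM, filterByExpr, 2 groups, R 4.3.3), Benjamini-Hochberg adjusted over 15218 genes at 0.05. The SE is the coefficient over the square root of F. Replicate pairs had a chi-square of 12 to 20.8 per degree of freedom, so none was taken as a duplicate. Simulated MR against Sham counts over 15218 genes recovered 36% of 1.5-fold, 74% of 2-fold, 94% of 4-fold and 100% of 8-fold changes. In this simulation 50 genes were changed at each fold size, and 15 unchanged genes were called. In the data 3408 genes were called, so these percentages describe the simulated setting alone. The 9 genes and the 9 lists were chosen with earlier results of these data known. Named from each list were up to 4 genes past the threshold with the smallest p, or the 2 most abundant, and the 6 genes of nearest profile. Other genes of the lists, such as Twist1, Adipoq and Plin1, were named after their values were seen. The alternatives were DESeq2 1.42.0, limma-voom (limma 3.58.1), other scalings and filters, a replicate block and left-out libraries.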

Additional observations from a re-analysis of the deposited data

How the results depend on the processing

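All 9 genes stayed higher and past the threshold in each of 14 alternative settings. With 1 library left out, their log2 fold changes ran from 1.32 to 1.71 (Wt1), 1.46 to 1.93 (Bnc1), 1.46 to 1.96 (Lrrn4), 1.04 to 1.30 (Aldh1a2), 1.39 to 1.94 (Upk3b), 0.87 to 1.47 (Upk1b), 1.23 to 1.63 (Msln), 1.19 to 1.73 (Krt19) and 1.13 to 1.61 (Krt8). Counts of called list genes moved more, and the cause was not tested. Against 12 called in the epicardial and mesothelial list, 1 in the keratin and uroplakin list, 3 in the retinoic acid list, 5 in the transition list, 0 airway, 6 fat cell, 3 fibroblast, 3 endothelial and 4 cardiomyocyte genes, scaling by library totals called 2 keratin and uroplakin, 8 retinoic acid, 1 airway, 5 fibroblast, 5 endothelial and 1 cardiomyocyte genes. With no filter on low counts 2 keratin and uroplakin, 7 retinoic acid, 2 airway and 5 fibroblast genes were called. With DESeq2 5 retinoic acid and 2 airway genes were called, and with limma-voom 0 fat cell genes. Of all genes, 4599 of 15218 tested were called under library totals and 4507 of 28032 without the filter. DESeq2 called 3194 of 17146 and limma-voom 3291 of 15218. With MR libraries 1 and 2 both left out 5 epicardial and mesothelial, 0 keratin and uroplakin, 2 transition, 0 fat cell, 0 endothelial and 1 cardiomyocyte genes were called, and 976 of all genes. With 1 library left out the counts were 7 to 12, 0 to 2, 2 to 5, 2 to 5, 0 to 2, 0 to 8, 1 to 3, 0 to 4 and 0 to 4 in the order above, and 1583 to 3453 over all genes against 3408.

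With the replicate number as a block, 5 retinoic acid genes and 1 airway gene were called, all 9 genes stayed called, and of all genes 3085 were. Same-numbered libraries did not deviate together (correlations of -0.01, -0.01 and -0.186 between their deviations from the group means), so the numbers were not taken to pair the mice. Genes of few counts, such as Slpi, Cldn3 and Wt1os, are limited by depth.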
